A study of Mus musculus with 59 samples.

Results

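The 10 genes described here are Colgalt1, Jade2, Inf2, Fmn1, Map2k3, Slc35c1, Ankrd33b, Tnfrsf25, Slc25a25 and Gpr83, out of 51456 gene identifiers measured by RNA-seq in the prefrontal cortex of mice, in 59 libraries. They were picked because their lithium change was alike in wild-type mice and in Ank2 heterozygotes and because they stand outside the families of activity-induced early genes. All 10 were matched by symbol to 1 gene model each, and all 10 are among the 16919 genes with a mean value of at least 10 that entered the tests. Because the lithium changes chose the genes, those changes are given as a description, without p-values, and support nothing by themselves.

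All mice were C57BL/6J. Wild-type (WT) mice carried no named allele, and HT mice were heterozygous for Ank2, the gene of the membrane-skeleton adaptor ankyrin-B. The kind of allele is not named in the labels. Pups received vehicle, lithium or fluoxetine through their mother's milk for 3 weeks, from postnatal day 3 to 24, and were analysed on postnatal day 25. The 6 groups of genotype and drug held 10 libraries each, 5 female and 5 male, except WT fluoxetine with 5 female and 4 male. Litters and dams are not named in the labels, so p-values measure the spread between these libraries, and a shared dam cannot be told apart from the drug she received. Values are the authors' normalized estimated gene counts, and changes are differences of log2(value + 1), written with the standard error (SE) of a linear model fitted to all genes.

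Lithium is a mood stabilizer that inhibits glycogen synthase kinase 3 and inositol monophosphatases, and fluoxetine is a serotonin reuptake inhibitor. Neurons answer synaptic activity and calcium entry by switching on transcription factors of the Fos, Egr and Nr4a families, the early genes, which in turn act on later genes. The 10 genes belong to no single pathway. Colgalt1 and Slc35c1 act on sugars in the secretory route, Inf2 and Fmn1 are formins that assemble actin filaments, Map2k3, Tnfrsf25 and Gpr83 carry signals, Slc25a25 is a mitochondrial carrier, Jade2 is a chromatin protein, and Ankrd33b is a little-studied protein with ankyrin repeats.

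The sequences upstream of the RefSeq starts differed among the genes. RefSeq start windows of 300 bases (250 before and 50 after the start, build GRCm38.p6) were at hand for 9 of the 10 genes, 16 windows in all, and Jade2 had none. Both strands were searched for 8 motifs. The full cyclic-AMP response element TGACGTCA, the site of CREB-type factors, was in 1 window of 1 gene, Slc25a25, beginning 150 bases before the start, and in 1.79% of all 32851 windows. Its shorter core TGACG, which lies inside the full element, was in 7 of the 16 windows, against 20.8% of all windows. Those windows belonged to 6 of the 9 genes (Ankrd33b, Colgalt1, Gpr83, Slc25a25, Slc35c1 and Tnfrsf25), and no share per gene was counted. The Colgalt1 windows overlap and hold the same site. The Egr motif GCGNGGGCG was in 3 of the 16 windows, against 5.55% of all windows. They were the windows of Inf2, which overlap and hold the same site, and 1 window of Tnfrsf25. No window of the 9 genes held the AP-1 motif TGANTCA (7.81% of all windows), the TCF/LEF motif CTTTGAT (3.73%), the glucocorticoid response element (0.0639%), the serum response element (1.63%) or the MEF2 motif (3.19%). A match is a description of letters, and which start these cells used was not measured. The bases after the start of the Slc25a25 window with the full element, which lies inside the gene, and of the Inf2 window shown were in no GENCODE transcript of those genes, while those of the Tnfrsf25 and Colgalt1 windows shown were.

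The 250 bases before 1 start are shown for 4 genes: Slc25a25 (chr2:32424067-32424316, - strand), with its full cyclic-AMP element in capitals; Tnfrsf25 (chr4:152115684-152115933, + strand), the gene with the highest fold change, with TGACG read on the other strand in capitals; Inf2 (chr12:112588517-112588766, + strand), with the Egr motif read on the other strand in capitals; and Colgalt1 (chr8:71610774-71611023, + strand), the 1 gene that was lower, with TGACG in capitals. Each runs 5′ to 3′ on the strand of its gene and comes from RefSeq. The Egr match of Tnfrsf25 lies 20 bases into the transcript and is outside the stretch shown.
Slc25a25: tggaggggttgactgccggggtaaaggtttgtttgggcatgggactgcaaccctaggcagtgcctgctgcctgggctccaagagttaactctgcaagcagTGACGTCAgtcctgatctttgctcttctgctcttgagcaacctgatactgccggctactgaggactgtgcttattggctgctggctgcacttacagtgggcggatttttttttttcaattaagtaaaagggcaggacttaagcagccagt
Tnfrsf25: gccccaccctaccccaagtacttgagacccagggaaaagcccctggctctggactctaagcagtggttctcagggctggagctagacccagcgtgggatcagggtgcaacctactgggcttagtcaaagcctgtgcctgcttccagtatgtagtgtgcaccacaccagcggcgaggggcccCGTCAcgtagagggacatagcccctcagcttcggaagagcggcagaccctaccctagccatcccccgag
Inf2: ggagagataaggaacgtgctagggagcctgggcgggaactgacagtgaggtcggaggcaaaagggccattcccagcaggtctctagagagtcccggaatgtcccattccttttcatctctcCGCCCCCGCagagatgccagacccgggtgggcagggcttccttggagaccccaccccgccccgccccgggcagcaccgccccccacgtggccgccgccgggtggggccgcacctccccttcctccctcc
Colgalt1: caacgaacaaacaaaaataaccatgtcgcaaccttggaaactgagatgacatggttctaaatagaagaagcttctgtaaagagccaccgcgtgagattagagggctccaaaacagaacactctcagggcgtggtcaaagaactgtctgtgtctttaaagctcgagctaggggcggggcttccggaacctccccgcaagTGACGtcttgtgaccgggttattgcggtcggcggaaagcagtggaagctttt

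The genotype labels and the tissue were checked first, and the sex labels were not checked. Ank2 lay between 23284 and 35821.1 in the WT libraries and between 17430.9 and 22812.9 in the HT libraries, so every library matched its genotype. Markers of cortical excitatory neurons were present in all 59 libraries: Slc17a7, the vesicular glutamate transporter of cortical neurons, lay between 34579.8 and 60473.9. Added up over all identifiers, each library came to between 30.29 M and 33.77 M (M for mega) on the authors' scale, and 22566 to 23745 genes were above 0. In 5 libraries the mean log2 level of oligodendrocyte, choroid plexus, striatum or dentate gyrus markers stood more than 1 log2 unit from the median of its genotype, drug and sex, and in 18 libraries that of olfactory bulb markers did. The defining choroid plexus gene Ttr, for example, ranged from 0 to 72657, with a median of 13.1. In bulk tissue fewer cells of a type and less RNA per cell cannot be told apart. Lithium changes are given again without these libraries where that moved them by over 1.5 times, and for Gpr83.

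The levels of the 10 genes differed widely. Per kilobase of the longest transcript, the mean value of the WT vehicle libraries was highest for Inf2 at 857.1, followed by Colgalt1 at 637, Slc25a25 at 441.4 and Ankrd33b at 338.6. Jade2 followed at 193.9, Slc35c1 at 155.4, Map2k3 at 154.7, Gpr83 at 111.8, Tnfrsf25 at 83.73 and Fmn1 at 43.15. Slc35c1 and Map2k3 could not be ordered, since their spreads between libraries were wider than their difference. Which transcripts were expressed was not measured, so the order rests on the longest one. For Fmn1 that is 11817 bases, among 9 transcripts.

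**Figure D1:**
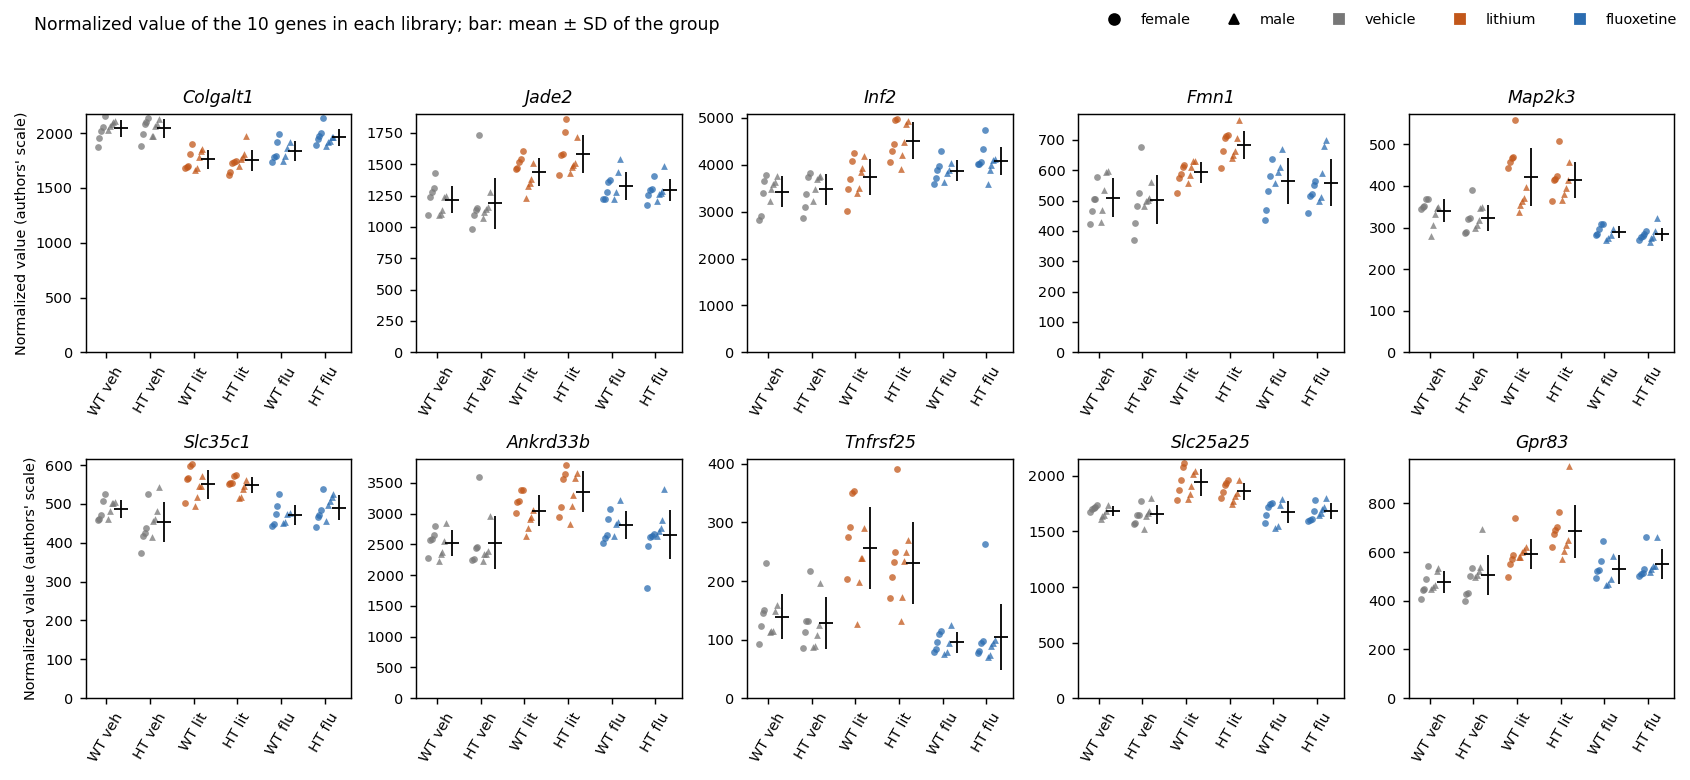
Normalized value (vertical axis from 0, the authors' scale, a separate axis per gene) of each gene in each of 59 libraries, grouped by genotype and drug, with circles for females, triangles for males and bars for the mean ± SD of each group. Colgalt1 is lower in both lithium groups (medians 1738.9 and 1742.3) than under vehicle (2056.1 and 2073.6), and the other 9 genes are higher.

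Colgalt1 (ENSMUSG00000034807, chr8:71610998-71624911, + strand, GRCm38) encodes an endoplasmic reticulum enzyme that adds galactose to hydroxylysine in collagens, and it was the 1 gene of the 10 with lower values under lithium. In WT mice its normalized value was 1875.3 in the lowest vehicle library, 2056.1 at the median and 2151.5 in the highest, and 1666.5, 1738.9 and 1897.4 under lithium. In HT mice the lowest, median and highest were 1883.1, 2073.6 and 2137.6 under vehicle and 1618.1, 1742.3 and 1977.2 under lithium. In each genotype 9 of the 10 lithium libraries lay under every vehicle library, and 1 overlapped. The log2 change was -0.22 (SE 0.03) in WT and -0.22 (SE 0.03) in HT, a ratio of 0.861 and 0.857. It shares 495 exon bases with Unc13a, a synaptic vesicle priming gene on the other strand. Unc13a itself was higher by 0.02 (SE 0.05) in WT and 0.12 (SE 0.05) in HT, neither called. The kit keeps strand, but whether the counting used it is not stated.

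Slc35c1 (ENSMUSG00000049922, chr2:92452764-92460538, - strand) carries GDP-fucose into the Golgi, where glycoproteins are fucosylated. Its values in WT ran from 459.8 through a median of 491.9 to 526.1 under vehicle, and from 494 through 554.7 to 603.4 under lithium. In HT they ran from 372.8 through 447.2 to 543 under vehicle, and from 514.7 through 552.3 to 574 under lithium. The medians of the lithium groups of both genotypes were nearly level, whereas the HT vehicle libraries reached lower than the WT ones. In each genotype 7 of 10 lithium libraries were above every vehicle library, and its log2 change was 0.17 (SE 0.05) in WT and 0.28 (SE 0.05) in HT.

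The 2 formins had the highest and the lowest value of the 10 genes per kilobase of the longest transcript. Inf2 (ENSMUSG00000037679, chr12:112588784-112615557, + strand), an inverted formin that both builds and severs actin filaments, ran from 2825.6 through a median of 3543.1 to 3790.7 in WT under vehicle and from 3025.2 through 3770.9 to 4257.9 under lithium. In HT its vehicle libraries lay between 2866 and 3833.9 (median 3587) and the lithium libraries between 3911.3 and 4986.5 (median 4467.6). The HT groups did not overlap, with lithium wholly above vehicle as for 0.0532% of all genes, and the WT groups did, with 5 of 10 lithium libraries above every vehicle library. Its log2 change was 0.13 (SE 0.06) in WT and 0.38 (SE 0.06) in HT, a difference of 0.25 (SE 0.08) between the genotypes, so that Inf2 was the gene whose lithium changes were least alike.

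Fmn1 (ENSMUSG00000044042, chr2:113327736-113716767, + strand), a formin known from limb and kidney development and from adherens junctions, had medians of 504.5 (lowest 422.9, highest 596.7) under vehicle and 598.8 (525.2 to 629.9) under lithium in WT. In HT its medians were 500.7 (369.6 to 677) and 685.1 (607.5 to 766.8). Every lithium library stood above the vehicle median of its genotype, and 5 of 10 stood above every vehicle library in each genotype. Its log2 change was 0.23 (SE 0.08) in WT and 0.45 (SE 0.08) in HT, and without the 18 libraries apart in olfactory bulb markers the WT change was 0.14 (SE 0.09). Antisense models share exon bases with Fmn1, but their mean values were 0.214 for Gm13963 and 0 for Gm13966.

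Map2k3 (ENSMUSG00000018932, chr11:60932033-60952811, + strand), the kinase that phosphorylates and activates p38 MAP kinases in the stress response, ran in WT from 279.9 through a median of 348.7 to 368.2 under vehicle and from 338 through 419.3 to 559.4 under lithium. In HT it ran from 286.8 through 319 to 391 and from 364.9 through 413.5 to 507. In each genotype 7 of 10 lithium libraries exceeded every vehicle library. Map2k3 thus changed by 0.30 (SE 0.05) in WT and 0.36 (SE 0.05) in HT.

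Tnfrsf25 (ENSMUSG00000024793, chr4:152115934-152120119, + strand), the death-domain receptor DR3 of the cytokine TL1A best known from T cells, showed the largest lithium change of the 10 genes and the widest spread. Its WT values were 91.9 in the lowest, 133.9 at the median and 230.9 in the highest vehicle library, and 125.9, 257 and 353.1 under lithium. In HT they were 85.4, 119 and 216.4 under vehicle and 131.4, 233.4 and 390.7 under lithium. The groups overlapped, with 7 of 10 lithium libraries in WT and 6 of 10 in HT above every vehicle library. The log2 change was 0.87 (SE 0.185) in WT and 0.85 (SE 0.185) in HT, a ratio of 1.82 and 1.81. Of the 87 genes called higher in both genotypes, Tnfrsf25 had the largest mean change.

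Gpr83 (ENSMUSG00000031932, chr9:14860210-14870789, + strand), a brain G protein-coupled receptor proposed to bind the proSAAS-derived peptide PEN, ran in WT from 405.3 through a median of 460.8 to 544.5 under vehicle and from 498 through 583.8 to 740 under lithium. In HT it ran from 398.4 through 502.4 to 696.2 and from 570.6 through 661.1 to 953.2. In WT 9 of 10 lithium libraries were above every vehicle library, and in HT 3 of 10 were, because 1 vehicle library reached 696.2. Its change was 0.32 (SE 0.07) in WT and 0.44 (SE 0.07) in HT. The highest HT library of each drug, male replicate 2 under vehicle and male replicate 1 under lithium, were also the highest of their groups in striatum markers, at 1.6 and 1.87 log2 units. Without the 5 libraries apart, the HT change was 0.44 again, and without the 18 it was 0.47 in HT and 0.26 in WT.

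Slc25a25 (ENSMUSG00000026819, chr2:32414487-32451445, - strand), the calcium-regulated carrier that exchanges ATP-magnesium for phosphate across the inner mitochondrial membrane, had a small change and a small spread. Its WT values ran from 1614.6 through a median of 1690.6 to 1740.9 under vehicle and from 1781.7 through 1938.8 to 2119.1 under lithium, and the groups did not overlap, with lithium wholly above vehicle as for 0.065% of all genes. The HT values ran from 1520.6 through 1649.9 to 1804.4 and from 1747.7 through 1850.9 to 1965.1, and 7 of 10 lithium libraries were above every vehicle library. The log2 change was 0.20 (SE 0.03) in WT and 0.17 (SE 0.03) in HT. Naif1, a nuclear gene on the other strand with which it shares 379 exon bases, was lower by values that were not called, -0.01 (SE 0.05) in WT and -0.06 (SE 0.05) in HT.

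Jade2 (ENSMUSG00000020387, chr11:51813455-51857653, - strand), a zinc-finger scaffold of the HBO1 histone acetyltransferase complex, had WT medians of 1235.3 under vehicle (1095.1 to 1427.8) and 1465.3 under lithium (1233.8 to 1601.3). Its HT medians were 1136.9 (985.5 to 1732.4) and 1541.6 (1410 to 1859.6). The highest HT vehicle library, female replicate 1, lay well above the rest of its group, and only 2 of 10 HT lithium libraries exceeded it. Jade2 thus differed by 0.24 (SE 0.06) in WT and 0.42 (SE 0.06) in HT.

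Ankrd33b (ENSMUSG00000022237, chr15:31291478-31367726, - strand) had medians of 2568.4 (2230.3 to 2847.6) under vehicle and 3034 (2639.2 to 3386.6) under lithium in WT. In HT its medians were 2371 (2236.6 to 3598.5) and 3434.6 (2835.4 to 3784.6). The same HT vehicle library, female replicate 1, was the highest of its group at 3598.5. The log2 change was 0.27 (SE 0.07) in WT and 0.42 (SE 0.07) in HT.

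Read over all genes tested, 2.22% were called with lithium in WT and 5.01% in HT at an adjusted p under 0.05 (limma, Benjamini-Hochberg). Of the 10 genes, 8 were called in WT, all but Inf2 and Fmn1, and 10 in HT, which the choice of the genes fixed. Genes called in both genotypes made up 0.514% of all tested when higher and 0.213% when lower, and no gene was called in opposite directions. Leaving out each library in turn kept the sign of every lithium change of the 10 genes, with Inf2 in WT the smallest at 0.10 to 0.16.

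**Figure D2:**
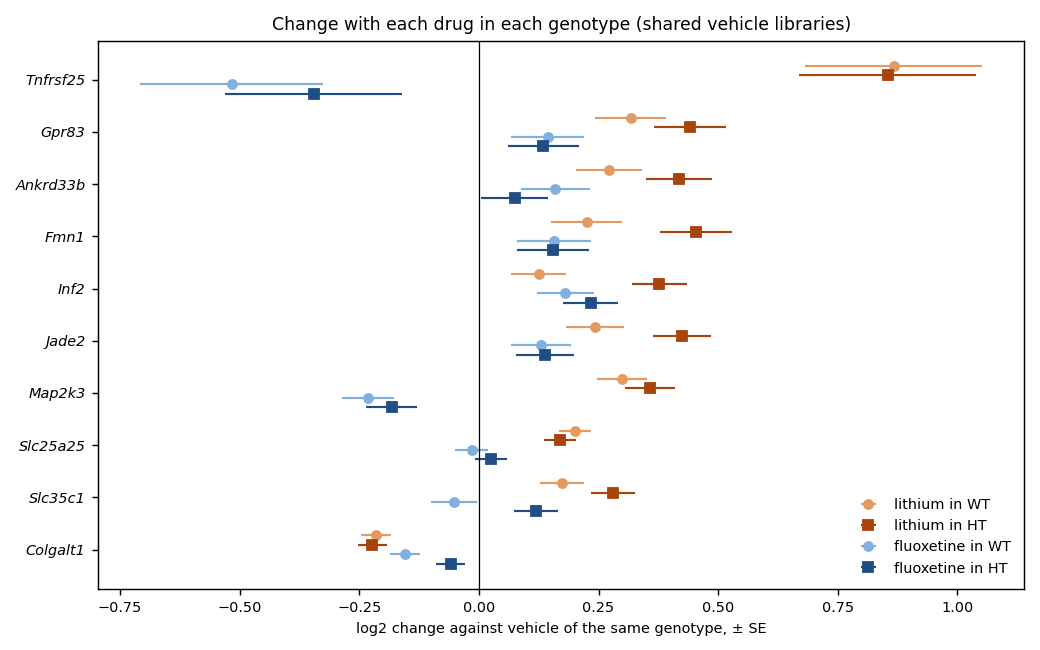
log2 change against vehicle of the same genotype (horizontal axis, ± SE) for lithium (orange) and fluoxetine (blue) in WT (circles) and HT (squares). Map2k3 and Tnfrsf25 lie right of 0 with lithium and left of it with fluoxetine.

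Fluoxetine was set against the same vehicle libraries as lithium, so its values are given side by side and no test of likeness was made. Map2k3 and Tnfrsf25 were on opposite sides of vehicle with the 2 drugs. Map2k3 had fluoxetine medians of 285.5 (271.2 to 309.6) in WT and 278.7 (265.6 to 322) in HT, and log2 changes of -0.23 (SE 0.05) and -0.18 (SE 0.05). In WT no fluoxetine library of Map2k3 reached the lowest lithium library at 338, and in HT none reached 364.9. The share of all genes with such a gap between the drugs was not counted, and the lithium libraries had chosen Map2k3. Tnfrsf25 had fluoxetine medians of 95 (76 to 125.6) in WT and 91.7 (70.2 to 262.8) in HT, and changes of -0.52 (SE 0.19) and -0.35 (SE 0.185). The Tnfrsf25 value of 262.8 came from HT fluoxetine female replicate 2, the library with the highest choroid plexus, dentate gyrus and oligodendrocyte marker levels (6.12, 4.63 and 1.62 log2 units). The HT fluoxetine change of -0.35 includes this library, and the part of those markers in its Tnfrsf25 value was not tested.

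Inf2 was higher with either drug, at fluoxetine medians of 3896.5 (3592.2 to 4300.6) in WT and 4037.9 (3582.5 to 4736.2) in HT, with changes of 0.18 (SE 0.06) and 0.23 (SE 0.06). In WT its fluoxetine change was thus above its lithium change of 0.13. Colgalt1 was lower with either drug, by -0.15 (SE 0.03) in WT and -0.06 (SE 0.03) in HT under fluoxetine. Slc25a25 had fluoxetine medians of 1722.7 (1528.9 to 1790.5) in WT and 1679 (1597.8 to 1800.1) in HT, within the range of vehicle apart from 3 WT libraries above it and the lowest WT ones below it, and changes of -0.02 (SE 0.03) and 0.03 (SE 0.03). The fluoxetine changes of Jade2, Fmn1, Ankrd33b and Gpr83 lay between 0.07 and 0.16, each under the lithium change of the same genotype. Slc35c1 stood at -0.05 (SE 0.05) in WT and 0.12 (SE 0.05) in HT. With the early gene level, described further on, as a covariate, the HT fluoxetine change went from 0.14 to 0.28 (SE 0.06) for Jade2 and from 0.12 to 0.22 (SE 0.05) for Slc35c1. Genes called with fluoxetine made up 14.8% of all tested in WT and 14% in HT. Colgalt1, Inf2 and Map2k3 were among them in WT, and Inf2 and Map2k3 in HT.

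Genotype was tested where the choice of the genes had not used it. Between HT and WT mice under fluoxetine, none of the 10 genes was called, nor were more than 2 of the 16919 genes (0.0118%). Without adjustment 15.7% of all genes had a p under 0.05, and of the 10 genes Colgalt1 alone did, at 0.09 higher in HT (SE 0.03, limma adjusted p = 0.147). Averaged over vehicle and lithium, 3 genes (0.0177%) were called and again none of the 10. Without adjustment 12.2% of all genes had a p under 0.05, among them Inf2 and Gpr83. Inf2 was 0.15 higher in HT (SE 0.04, limma adjusted p = 0.169) and Gpr83 0.14 higher (SE 0.05, adjusted p = 0.291). For the other 8 genes the 95% intervals of that difference lay between -0.41 and 0.20, the widest being that of Tnfrsf25.

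Sex was tested over all 6 groups. With 2.1% of all genes called, Map2k3 was the 1 gene of the 10 that passed, and it was lower in males by a log2 difference of -0.11 (SE 0.03, limma adjusted p = 0.0493). Its medians were 352.4 in females and 333.1 in males of the WT vehicle group, 319.5 and 318.5 in HT vehicle, 466.8 and 363.7 in WT lithium, and 416 and 394.9 in HT lithium. Under fluoxetine they were 297.5 and 278.7 in WT and 280.3 and 277.1 in HT. The WT lithium females, from 442 to 559.4, all lay above the WT lithium males, from 338 to 396.6, while in the other 5 groups the sexes overlapped. How many of all genes part the sexes in this way within a group was not counted. The call rested on the threshold: leaving out 1 library ended it in 42 of 59 fits, with adjusted p from 0.0283 to 0.0809, and the difference stayed between -0.12 and -0.10. Tnfrsf25 was -0.23 (SE 0.11) lower in males and Fmn1 0.10 (SE 0.04) higher, neither past the threshold (limma adjusted p = 0.224 and 0.203).

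The lithium change itself was compared between the sexes, averaged over the genotypes. No gene of 16919 was called by limma (0%), against 14.8% at an unadjusted p under 0.05. Map2k3 and Slc35c1 had the smallest p among the 10 genes, with a lithium change that was -0.17 (SE 0.07, limma adjusted p = 0.287) and -0.14 (SE 0.06, adjusted p = 0.302) in males relative to females. Map2k3 in WT stood at 0.42 (SE 0.07) in females and 0.18 (SE 0.07) in males, and in HT at 0.40 and 0.31. Slc35c1 stood at 0.22 and 0.12 in WT females and males (SE 0.06) and at 0.37 and 0.19 in HT. Gpr83 in HT stood at 0.59 (SE 0.11) in females and 0.29 (SE 0.11) in males. All 10 genes kept their lithium sign in both sexes of both genotypes. These are the libraries that chose the genes, and the choice may have asked for the same sign in both sexes. Over those 4 sets of libraries Inf2 in WT males was nearest to 0, at 0.09 (SE 0.08).

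**Figure D3:**
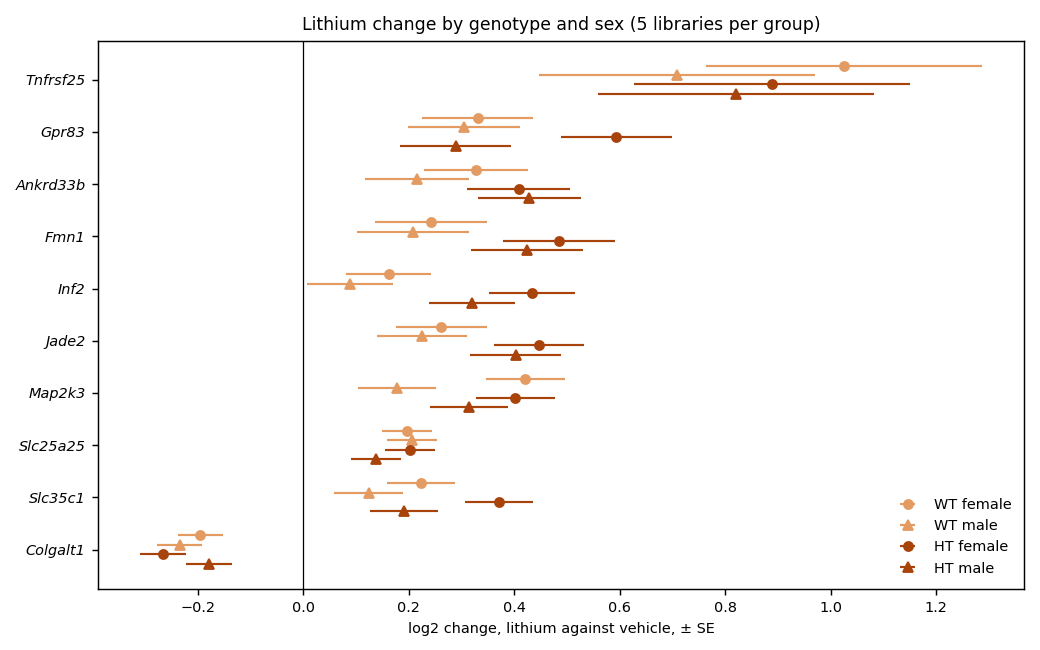
log2 change of lithium against vehicle (horizontal axis, ± SE) in WT (light) and HT (dark), females (circles) and males (triangles), 5 libraries per drug and sex. Colgalt1 lies left of 0 in all 4 sets and the other 9 genes right of it. The genes were chosen on these libraries.

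Early genes changed under lithium too, and their level in a library is given beside the 10 genes because the genes were chosen as standing outside those families. The list of 23 early genes was drawn up with earlier results of these data known. In WT 18 of the 23 were called higher and none lower, with a median change of 0.59 against -0.00047 over all genes; Arc, a synaptic regulator, rose by 1.59 (SE 0.30, limma adjusted p = 0.00127), and the phosphatase gene Dusp1 by 1.05 (SE 0.17, adjusted p = 0.000357). In HT 5 of 23 were called higher, Bdnf, Dusp6, Ier5, Egr3 and Nr4a3, with a median of 0.33 against -0.00481 over all genes. The early gene level of a library, the mean log2 deviation of the 23 genes, had medians of -0.12 in WT vehicle, 0.64 in WT lithium and -0.39 in WT fluoxetine. In HT the medians were -0.15 under vehicle, 0.32 under lithium and -0.48 under fluoxetine.

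Within groups, the slope on the early gene level was tested, which the choice of the genes had not used. It was called for 0.68% of all genes and for 2 of the 10. Jade2 was higher by 0.30 log2 units per unit of early gene level (SE 0.07, limma adjusted p = 0.00728), and Slc35c1 by 0.22 (SE 0.05, adjusted p = 0.00937). Both calls rested on 1 library, HT vehicle female replicate 1, whose early gene level of 0.699 was the highest of its group and which had the highest Jade2 value of its group, 1732.4, and a Slc35c1 value of 526.7 near its top of 543. Without it the slopes were 0.20 (limma adjusted p = 0.182) and 0.18 (adjusted p = 0.128). Each of the other 58 fits that left out 1 library kept both calls. Map2k3 (0.19, SE 0.06) and Slc25a25 (0.11, SE 0.04) did not pass (limma adjusted p = 0.166 and 0.24), but Slc25a25 did without WT fluoxetine male replicate 1 (adjusted p = 0.0441). Inf2, at 0.03 (SE 0.07), and Gpr83, at 0.06 (SE 0.10), had the slopes nearest to 0.

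**Figure D4:**
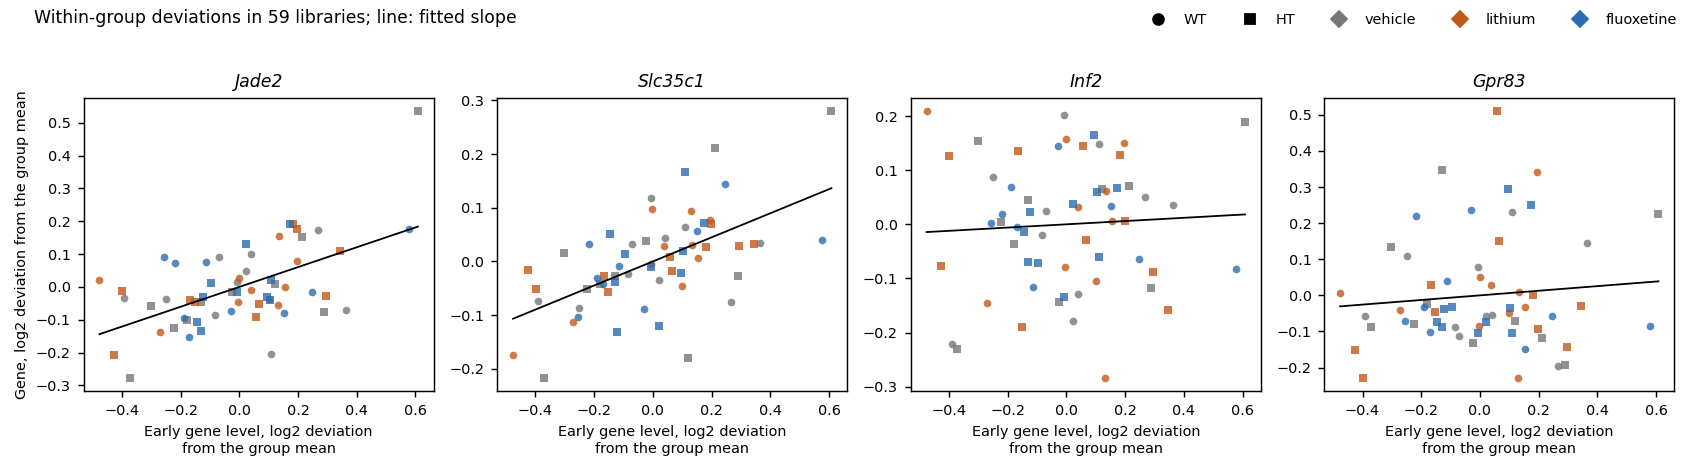
Deviation of Jade2, Slc35c1, Inf2 and Gpr83 from the mean of their group (vertical axis, log2) against that of the early gene level (horizontal axis, log2) in 59 libraries, circles for WT and squares for HT, colours for drugs, lines for the fitted slopes of 0.30, 0.22, 0.03 and 0.06. The grey square at the upper right of the Jade2 and Slc35c1 panels is HT vehicle female replicate 1.

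With the early gene level as a covariate, the lithium changes of the 10 genes kept their signs but became smaller. In WT the median over the 10 genes went from 0.23 to 0.14, and in HT from 0.40 to 0.34. Jade2 in WT went from 0.24 to 0.04 (SE 0.07), and Slc35c1 in WT from 0.17 to 0.02 (SE 0.05). Map2k3 in WT went from 0.30 to 0.17 (SE 0.06) and Slc25a25 from 0.20 to 0.13 (SE 0.04). Inf2 in HT stood at 0.37 (SE 0.06), Gpr83 at 0.42 (SE 0.08), Fmn1 at 0.42 (SE 0.08) and Tnfrsf25 at 0.78 (SE 0.20), next to 0.38, 0.44, 0.45 and 0.85 without the covariate. Since the covariate itself differed between the drug groups, the changes with it are a description.

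The 10 genes did not vary as 1 block within groups. Over their 45 pairs the Pearson r of the deviations from group means, across the 59 libraries, had a median of 0.17 and ran from -0.44 for Colgalt1 and Gpr83 to 0.63 for Jade2 and Ankrd33b, with 34 pairs above 0. The median r of a member with any gene tested was -0.00. Jade2 with Map2k3 (0.615), Inf2 with Gpr83 (0.54), Slc35c1 with Ankrd33b (0.515) and Map2k3 with Ankrd33b (0.495) followed. Such values share the depth, dissection and cell makeup of each library and are given without a test. They include HT vehicle female replicate 1, the highest library of its group for both Jade2 and Ankrd33b. Its part in their r was not tested.

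**Figure D5:**
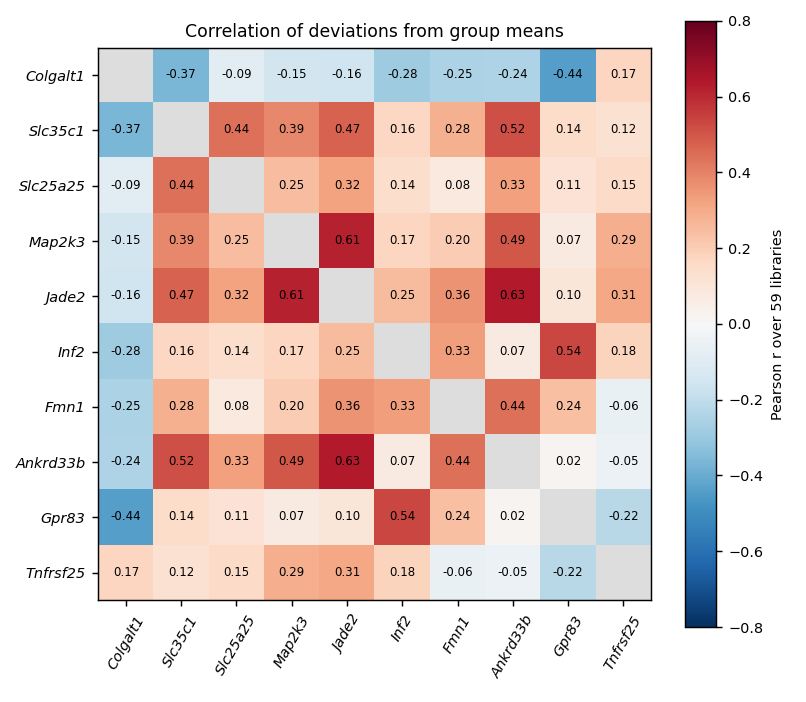
Pearson r of the deviations from group means between each pair of the 10 genes over 59 libraries (both axes list the genes, colour and number give r, diagonal left grey). Jade2, Map2k3, Slc35c1 and Ankrd33b share positive values, and Colgalt1 has negative values with Gpr83 (-0.44) and Slc35c1 (-0.37).

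The genes most like each member over the 59 libraries, by the same measure, fell into different kinds. Jade2 was most like the clock-linked repressor Bhlhe40 (r = 0.83), Ankrd33b like the early gene Ier5 (0.805), and Slc35c1 like Dusp6 (0.705), a phosphatase that dampens ERK, followed by Spry2 and Egr4. Map2k3 was most like the clock gene Per1 (0.64), followed by Spry4 and Dusp6, and Slc25a25 like the receptor Gpr3 (0.57). Outside the early genes, Gpr83 was most like Gprin3 (0.805), followed by Entpd3 and Rasd2, Tnfrsf25 like the endocytosis gene Sh3gl1 (0.70), and Inf2 like the peptidase gene Dpp9 (0.67). Fmn1 was most like the potassium channel gene Kcnq5 and the calcium release channel gene Itpr1 (0.695 each), and Colgalt1 like the lysosomal gene Tmem9 (0.64). These r were picked as the highest, and the 99th percentile over all genes ran from 0.33 for Slc25a25 to 0.57 for Ankrd33b. The libraries named above as apart are included. The part of striatum markers in the likeness of Gpr83, and of HT vehicle female replicate 1 in that of Jade2 and Ankrd33b, was not tested.

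Of the 93 tested relatives and partners of the 10 genes, in lists drawn up with earlier results known, 2 were called with lithium in WT (2.15%, against 2.22% of all genes) and 11 in HT (11.8%, against 5.01%). Of the 12 other formins tested, none was called in WT and 2 were in HT, with Fmnl1 higher by 0.28 (SE 0.07, limma adjusted p = 0.0137) and Diaph3 lower by -0.45 (SE 0.13, adjusted p = 0.0312). Of 16 other genes of the MAP2K and p38 cascade, none was called in WT and 2 in HT, the upstream kinase gene Map3k5 at 0.25 and the adaptor gene Tab1 at -0.20. Of 14 other genes of death receptor signalling, none was called in WT and 2 in HT, Tnfrsf21 at 0.20 and Birc2 at -0.13. The median changes of these 3 lists in WT and HT were -0.03 and -0.00 for formins, 0.03 and 0.01 for the kinases, and 0.07 and -0.03 for the death receptor genes.

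In the sugar and collagen pathways, 1 of 14 other genes of collagen modification was called in HT, the prolyl hydroxylase gene P4ha1 at 0.25 (SE 0.06). Of 14 of GDP-fucose supply, 1 was called in HT, the fucokinase gene Fuk at 0.19 (SE 0.06). None of either list was called in WT. Among genes in and around the HBO1 complex, Ing4, a reader of methylated histones, was lower in both genotypes. Its change was -0.14 (SE 0.04, limma adjusted p = 0.0296) in WT and -0.14 (SE 0.04, adjusted p = 0.0183) in HT. The other 9 genes were not called. Of 7 other mitochondrial carriers, only some of them calcium-regulated, Slc25a24, another ATP-magnesium carrier, was lower in HT by -0.36 (SE 0.10, limma adjusted p = 0.0204). None was called in WT. Among 6 tested genes around Gpr83, the prohormone convertase gene Pcsk1 was higher in HT by 0.28 (SE 0.09) and the neuropeptide Y receptor gene Npy1r lower in WT by -0.21 (SE 0.06), both called. Ankrd33, the relative of Ankrd33b, was under the filter on low values.

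Of 74 tested markers of cell types and regions, 1 was called with lithium in WT (1.35%, against 2.22% of all genes) and 3 in HT (4.05%, against 5.01%). Of the 8 excitatory neuron markers, 8 were higher in HT with a median change of 0.13 and 1 was called, and in WT 4 were higher and 4 lower. Of the 7 inhibitory neuron markers 1 was called higher in each genotype, and it was the same gene, Pvalb. Its change was 0.46 (SE 0.10, limma adjusted p = 0.00427) in WT and 0.43 (SE 0.10, adjusted p = 0.00583) in HT. The rest of that list lay on both sides of 0. Of the 6 astrocyte, 7 oligodendrocyte, 6 microglia and 8 striatum markers none was called in either genotype. Of the 5 endothelial markers 1 was called higher in HT. The 6 olfactory bulb markers were all lower, with medians of -0.17 in WT and -0.77 in HT, and the 5 blood markers had medians of 0.10 and -0.49, with none of either called. The part of cell makeup in the changes of the 10 genes was not tested beyond the values without the libraries that stood apart.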

How the data were processed

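Messenger RNA was sequenced from mouse prefrontal cortex in 59 libraries of 12 groups of genotype, drug and sex, as the labels give them. The deposited values are signal, that is, gene counts estimated and then normalized by the authors. The submitters' processing notes name Salmon 0.11.2, R 3.6.0, DESeq2 1.19.11 and build GRCm38, without settings. Whole reads could not be recovered, since a median of 56.73% of low values per library (28.35% to 66.75%) were whole multiples of the commonest low value within 0.1 steps, so the depth in reads is not known.

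Of 51456 identifiers, 51285 matched GRCm38 gene models. A mean of at least 10 was required, which 16919 genes met, and log2(value + 1) was fitted in 1 model of the 12 group means (limma 3.58.1 in R 4.3.3, trend, robust, 47 residual degrees of freedom), with two-sided tests and Benjamini-Hochberg adjustment over all genes tested. Genes with an adjusted p under 0.05 were called. Contrasts averaged the sexes. Annotation, motif search and plots used Python 3.11.15. The fit was tested on simulated data.

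The members and gene lists were chosen with earlier results of these data known. The text names all 10 members, up to 4 called genes of smallest p from each list, and the 3 genes most like each member. Replicate numbers did not pair libraries: the median correlation of deviations was -0.00331 over 145 same-number pairs and -0.00437 over 580 others. Alternatives were other pseudocounts, scalings, filters and weights, a replicate block, an early gene covariate, removal of length and GC trends, and libraries left out. No 2 libraries were duplicates (highest correlation of log2 values 0.991385).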

Additional observations from a re-analysis of the deposited data

Results flagged for a closer look

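Each of the 10 genes was checked in the 6 groups for a single library far from the rest, 60 checks in all, of which 10 met Dixon's 95% limit, where chance flags about 5% of groups. All 10 were the highest library of their group. Tnfrsf25 gave 3 of them. In HT fluoxetine, female replicate 2 stood at 262.8 with the next library at 100.1. In WT vehicle, female replicate 3 stood at 230.9 with the next at 158.5, and in HT lithium, female replicate 5 stood at 390.7 with the next at 269.4. Gpr83 gave 3 as well, with 696.2 in HT vehicle male replicate 2 (next 538), 953.2 in HT lithium male replicate 1 (next 765.1) and 740 in WT lithium female replicate 5 (next 620.2).

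HT vehicle female replicate 1 stood apart for Jade2 at 1732.4 (next 1281) and for Ankrd33b at 3598.5 (next 2956.9). Colgalt1 stood at 2141.3 in HT fluoxetine female replicate 2 (next 2003.6), the library that also gave the highest Tnfrsf25 value. Map2k3 stood at 322 in HT fluoxetine male replicate 3 (next 291.9). No explanation of these values was tested.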

How the results depend on the processing

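All 10 lithium changes kept their sign in both genotypes under every alternative run. Precision is limited by 9 or 10 libraries per group of genotype and drug and by unknown read depth. The numbers of genes called were 376 for lithium in WT, 847 for lithium in HT, 2500 and 2370 for fluoxetine in WT and HT, 2 and 3 for the 2 genotype comparisons, 355 for sex, 0 for the sex difference of lithium and 115 for the early gene slope. The causes were not tested. With no filter on low values they were 212 for lithium in WT, 448 in HT and 172 for sex. Array weights gave 1346 and 2614 for lithium in WT and HT, 3646 for fluoxetine in HT, 4 for genotype under fluoxetine, 59 for genotype over vehicle and lithium, 1748 for sex and 666 for the sex difference of lithium. The early gene covariate gave 0 and 309 for lithium in WT and HT, and 1 and 10 for genotype. Removing length and GC trends gave 1211 for fluoxetine in WT and 4 for genotype under fluoxetine. Rescaling to the same sum gave 1 for the sex difference of lithium and 199 for the early gene slope. Fits of only the groups compared gave 5 and 14 for genotype and 87 for the sex difference of lithium. Without the 5 libraries apart there were 47 and 7 for genotype and 206 for sex. Without the 18 apart in olfactory bulb markers there were 1054 and 1466 for fluoxetine, 6 and 1 for genotype, 83 for the sex difference of lithium and 74 for the early gene slope.

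Of the 10 genes, Map2k3 was the 1 called by sex, and 0 were called with no filter, with the replicate block, or without either set of libraries apart. With length and GC trends removed Map2k3 (adjusted p = 0.0553, limma) gave way to Fmn1 (0.16, adjusted p = 0.0456, limma). Of the 2 called by early gene slope, 1 was left with array weights, without the olfactory bulb libraries, and with a list of 6 early genes, Jade2 being lost each time. An alternative chosen after seeing the data left out the 2 libraries whose early gene level was farthest from the median of all libraries. These were HT lithium female replicate 2 (0.7345) and WT lithium male replicate 5 (0.7303). That fit kept Jade2 (0.29, limma adjusted p = 0.0168) and Slc35c1 (0.23, adjusted p = 0.0134). HT vehicle female replicate 1, on which both calls rested, stayed in it, so it could not test that dependence.

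Leaving out each library in turn gave 214 to 524 genes for lithium in WT, 356 to 1597 in HT, 1 to 132 for genotype under fluoxetine, 2 to 19 for genotype over vehicle and lithium, 199 to 1011 for sex, 0 to 42 for the sex difference of lithium and 71 to 231 for the early gene slope. The lowest HT lithium count was without HT vehicle female replicate 4 and the highest without HT vehicle female replicate 1. Members called ranged from 0 to 1 for sex and from 0 to 3 for the early gene slope.

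With the replicate number as a block, a pairing that the libraries did not bear out, 31 genes were called for genotype under fluoxetine and 74 for the early gene slope, 367 and 880 for lithium in WT and HT, and Map2k3 by sex had an adjusted p of 0.0546 (limma). The block changed no other call of the 10 genes in the tested comparisons.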
